A study of Homo sapiens with 6 samples.

Results

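GFI1 and GFI1B, a pair of genes for related transcriptional repressors of blood cells, were examined as chromatin loci bound by V5-tagged GSE1. Every peak that overlapped the GENCODE span of either gene, extended by 100 kb on each side, was taken as a member. By this rule 20 of the 34634 deposited peaks were members, 15 of the 21401 peaks listed for vehicle-treated cells and 5 of the 13233 listed after treatment with an LSD1 inhibitor. Peak names in the first list ran to 22566 and 1165 of its numbers are not analysed here, none of them between those of neighbouring members, whereas the second list had no such gap, so that shares of the whole DMSO list rest on a list with gaps. GFI1 (ENSG00000162676.13) contributed 8 and 3 peaks, and GFI1B (ENSG00000165702.15) contributed 7 and 2.

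The peaks came from V5 chromatin immunoprecipitation followed by sequencing (ChIP-seq) in NB4, an established human line of acute promyelocytic leukaemia. Cells were transduced with the lentiviral vector pLEX_307, either empty (EV) or carrying GSE1 transcript variant 2, which was expressed with a V5 tag beside the cells' own GSE1. The GSE1 cells received the LSD1 inhibitor MC2580 at 2 µM or its solvent DMSO for 24 h, whereas the EV cells were labelled as having no treatment. The 6 libraries were 3 ChIPs and 3 inputs, 1 per group, so that no value below has a replicate error, no test between the conditions was made, and each difference is one between 2 libraries. Both lists shared the EV ChIP as a control, read depth was unknown, and no marker of the cell type could be read from peak positions.

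GFI1 and GFI1B are zinc-finger proteins whose short N-terminal SNAG domain resembles the tail of histone H3 and docks into LSD1. Through it they bring the LSD1 and CoREST corepressor complex, with its deacetylases, to sites with an AATC core, and both repress their own and each other's genes. GFI1 acts in granulocytes and stem cells, whereas GFI1B acts in the erythroid and megakaryocytic lineages. GSE1 is a protein found in complexes with LSD1, and the study asked where it lies on chromatin and whether the inhibitor changes this.

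Both genes have several annotated starts. GFI1 lies on the minus strand at chr1:92473043-92486925 (hg38), with 9 transcripts from 7 start sites. Its main transcript starts at 92486925 and has 7 exons. GFI1B lies on the plus strand at chr9:132944000-132991687, with 8 transcripts from 8 start sites, and its main transcript, also of 7 exons, starts at 132978694. Distances below run from these main start sites to peak midpoints, and they are positive in the direction of transcription.

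The sequences under the members that carried the comparison are given first. The peak caller's summits were not used here, so that each window is the 300 bases around a DMSO peak's midpoint, written 5′ to 3′ on the strand of the gene, with consensus words for blood transcription factors in capitals (either strand). The words were AAATCA for GFI1, GAGGAA for PU.1, TGTGGT for RUNX, AGATAA for the GATA factors, TGANTCA for AP-1 and TTGCNNAA for CEBP, and a word may share its end letters with another, as AAATCA can with TTGCNNAA. At GFI1B the first window is the centre of the strongest member of either locus, 25.1 kb downstream of the start, at chr9:133003694-133003993 (plus strand). The next is the strongest peak inside the gene, 3.64 kb downstream of the start, at chr9:132982182-132982481 (plus strand), a member of the DMSO list only.
GFI1B 25.1 kb: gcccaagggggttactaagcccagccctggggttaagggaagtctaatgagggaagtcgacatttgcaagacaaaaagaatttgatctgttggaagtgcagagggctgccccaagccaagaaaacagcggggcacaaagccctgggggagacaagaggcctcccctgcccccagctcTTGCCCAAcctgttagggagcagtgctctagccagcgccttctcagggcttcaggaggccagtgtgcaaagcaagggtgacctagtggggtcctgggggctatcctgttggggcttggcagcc
GFI1B 3.64 kb: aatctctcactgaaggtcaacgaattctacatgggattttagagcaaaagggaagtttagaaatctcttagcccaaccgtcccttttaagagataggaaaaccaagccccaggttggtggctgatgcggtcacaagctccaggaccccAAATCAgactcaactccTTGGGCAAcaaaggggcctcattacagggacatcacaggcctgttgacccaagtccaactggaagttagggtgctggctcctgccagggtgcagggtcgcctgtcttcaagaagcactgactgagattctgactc
The first window held 1 CEBP word and no GFI1 word, and the second held 1 GFI1 word and 1 CEBP word.

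The GFI1B promoter is shown by the study's ChIP-qPCR primers and by the GFI1 word between them. Each primer matched the genome once, the forward primer at chr9:132978613-132978632 (plus strand) and the reverse primer at chr9:132978772-132978791 (minus strand). The product of 179 bp reached from 81 bp before to 97 bp after the main start site. The 30 bases at chr9:132978651-132978680 (plus strand) have the GFI1 word in capitals.
GFI1B forward primer: TCATTGGCTGCTTGTTCACC
GFI1B reverse primer: GAACTGCAAAGCCTCTCTCG
GFI1B promoter site: taatcagattgaAAATCAgggaggggaaca

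At GFI1 the RefSeq promoter entries, whose letters were the same as in hg38, show both sides of the main promoter peak. The bases before the main start, chr1:92486926-92487175 (minus strand), lay in the DMSO peak and outside the MC2580 peak, and held none of the 6 words. The bases before an internal start, chr1:92486100-92486349 (minus strand), were overlapped by peaks of both lists and held 1 CEBP and 1 RUNX word. The remaining windows are the GFI1 members that were called in both lists away from the promoter, 26.9 kb downstream at chr1:92459897-92460196 and 58.0 kb upstream at chr1:92544779-92545078 (both minus strand).
GFI1 main promoter: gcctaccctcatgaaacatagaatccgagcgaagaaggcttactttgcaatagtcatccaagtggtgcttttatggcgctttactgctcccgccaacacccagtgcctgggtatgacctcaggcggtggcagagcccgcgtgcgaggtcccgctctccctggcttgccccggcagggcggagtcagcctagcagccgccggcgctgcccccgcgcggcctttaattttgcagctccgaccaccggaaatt
GFI1 internal promoter: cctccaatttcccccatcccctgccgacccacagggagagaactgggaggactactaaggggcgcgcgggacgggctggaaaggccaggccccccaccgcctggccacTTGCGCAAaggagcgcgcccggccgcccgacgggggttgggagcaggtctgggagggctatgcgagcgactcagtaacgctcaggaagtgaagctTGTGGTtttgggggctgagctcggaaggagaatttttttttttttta
GFI1 26.9 kb: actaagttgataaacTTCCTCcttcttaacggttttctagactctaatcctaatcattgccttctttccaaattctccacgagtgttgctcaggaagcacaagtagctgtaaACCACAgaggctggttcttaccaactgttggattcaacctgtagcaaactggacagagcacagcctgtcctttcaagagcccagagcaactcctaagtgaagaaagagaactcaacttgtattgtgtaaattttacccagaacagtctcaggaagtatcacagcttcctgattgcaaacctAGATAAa
GFI1 -58.0 kb: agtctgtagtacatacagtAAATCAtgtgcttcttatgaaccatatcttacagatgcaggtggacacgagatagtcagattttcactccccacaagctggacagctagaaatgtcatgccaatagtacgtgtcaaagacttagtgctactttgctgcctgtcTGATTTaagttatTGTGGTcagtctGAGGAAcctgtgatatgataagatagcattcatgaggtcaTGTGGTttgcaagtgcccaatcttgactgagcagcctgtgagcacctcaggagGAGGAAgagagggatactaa
The upstream window held 2 GFI1, 2 PU.1 and 2 RUNX words, the most words of any member window, and the downstream window held 1 PU.1, 1 RUNX and 1 GATA word.

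GFI1 carried its strongest V5-GSE1 peak over its own promoter. The score of a peak is the value deposited by the authors' peak caller, its p-value as log10, multiplied by 10 and with the sign reversed, and 50 was the lowest that could be called. In DMSO the peak at chr1:92485263-92487443 had a score of 417.8, which exceeded 92.8% of the DMSO list, and at 2181 bp it was the widest at the locus. It covered the main start site and exon 1. A neighbouring peak at chr1:92483581-92485009, midpoint 2.63 kb inside the gene, lay in intron 1 except for 6 bp of exon 2 and scored 158.76.

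In the MC2580 list the promoter of GFI1 was represented by 1 narrower and lower peak, at chr1:92485339-92486260, with a score of 71.3. This peak was 922 bp wide and lay wholly within the DMSO peak, of which it covered 42.3%. Its edge lay 665 bp inside the gene from the main start site, so that the main start was no longer covered, whereas internal start sites at 92486097 and 92485939 were. The midpoint lay 554 bp further into the gene, the largest shift among the 5 overlapping pairs of both loci.

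Further into the gene GFI1 had weaker peaks in DMSO alone. The peak with its midpoint at 6.83 kb, which held exon 5 and 14 bp of exon 4, scored 74.84 and covered an internal start site at 92480485. The peak with its midpoint at 10.5 kb, which held 172 bp of exon 7, scored 61.47, the lowest score of any DMSO member. Together with the 2.63 kb peak, 3 of the 4 DMSO peaks within GFI1 had no counterpart in the MC2580 list, although the 2.63 kb peak ended only 330 bp from the MC2580 promoter peak.

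**Figure D1:**
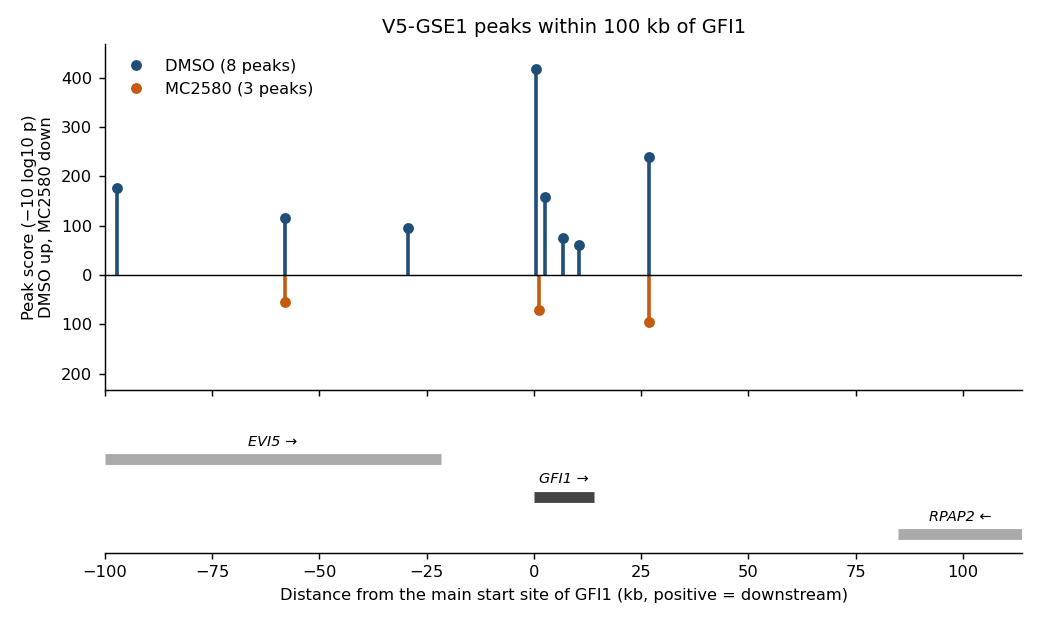
Peaks of V5-GSE1 within 100 kb of GFI1, with the distance of the peak midpoint from the main start site in kb on the horizontal axis and the score on the vertical axis, DMSO upwards and MC2580 downwards. Bars below show protein-coding genes with arrows for their strand relative to GFI1. The DMSO promoter peak reaches 417.8, and the 3 MC2580 peaks, at 54.34, 71.3 and 96.1, lie opposite DMSO peaks.

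Outside the gene, GFI1 had 1 downstream and 3 upstream members in DMSO. The downstream peak, chr1:92459457-92460637, lay 12406 bp beyond the end of the gene in intergenic sequence and scored 238.01. Upstream, the members all lay within EVI5, a neighbouring gene on the same strand that encodes a protein of the TBC domain family. Their midpoints were at -29.3, -58.0 and -97.1 kb and their scores were 95.35, 114.78 and 176.13. The most distant one was classed as promoter only because a pseudogene, ENSG00000223787, starts 2696 bp away.

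Of these outer members the downstream peak and the -58.0 kb peak were also in the MC2580 list. The downstream peak scored 96.1 there, the highest MC2580 score at GFI1, and the -58.0 kb peak scored 54.34, close to the calling threshold. The order of the strongest sites at GFI1 thus differed between the lists: the promoter led the downstream site in DMSO, and the downstream site led the promoter in MC2580. As scores of single libraries these orders have no error, and 71.3 and 96.1 exceeded 43.0% and 64.1% of the MC2580 list.

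GFI1B carried its strongest peak downstream of the gene. In DMSO the peak at chr9:133002636-133005052, in intergenic sequence 10949 bp beyond the gene end, scored 768.72, rank 740 of the list and above 96.5% of it. It was 2417 bp wide, the widest of all members. The same site scored 269.1 in MC2580 (chr9:133002662-133004738), rank 1144 and above 91.4% of that list, and was the only MC2580 member with a score of at least 100. The overlap of 2077 bp was the whole MC2580 peak and 85.9% of the DMSO peak.

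The promoter and body of GFI1B had peaks in the DMSO list only. The peak over the main start site and exon 1, chr9:132978336-132979225, scored 83.37, above 43.7% of the list. It contained the whole ChIP-qPCR product. The intronic peak at 3.64 kb, chr9:132981652-132983012, scored 261.04, above 87.0% of the list, and another intronic peak at 5.68 kb scored 61.58. No MC2580 peak overlapped any of these, and the MC2580 peak nearest to the qPCR product was 23871 bp away, at the downstream site.

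**Figure D2:**
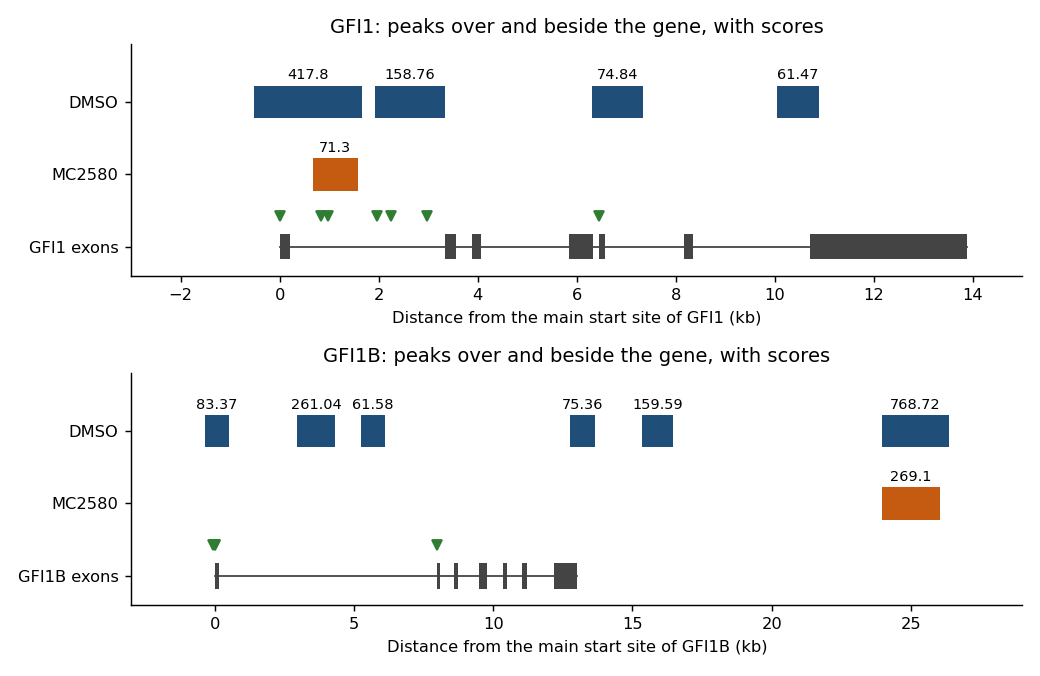
Peaks drawn to scale as bars over and beside GFI1 (top) and GFI1B (bottom), with the score above each bar, against the distance from the main start site in kb. Dark boxes are exons of the main transcript and triangles are annotated start sites in the range drawn. The MC2580 bar of GFI1 (71.3) lies inside the DMSO promoter bar (417.8) and begins 665 bp past the main start site, and GFI1B has an MC2580 bar only at the downstream site (269.1).

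The 3′ side of GFI1B had a further pair of DMSO peaks between gene and downstream site. One straddled the gene end, with 229 bp in exon 7 and its midpoint at 13.2 kb, and scored 75.36. The other, at 15.9 kb and 2365 bp beyond the gene end, scored 159.59. Neither had an MC2580 counterpart, the nearest MC2580 peak being 10324 and 7512 bp away. With these, 5 consecutive DMSO peaks between 0.086 and 15.9 kb were without overlap, and the sixth, at 25.1 kb, was the shared one.

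The only upstream member of GFI1B lay at -89.6 kb and overlapped an exon of SPACA9, a gene for a sperm acrosome associated protein. It scored 194.46 in DMSO (chr9:132888655-132889550) and 58.35 in MC2580 (chr9:132888744-132889580), with 807 bp in common. Its nearest start site was that of SPACA9, 9757 bp away. The upstream start sites of GFI1B, used by its longer transcripts from 132944000 on, had no peak within 3 kb in either list.

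**Figure D3:**
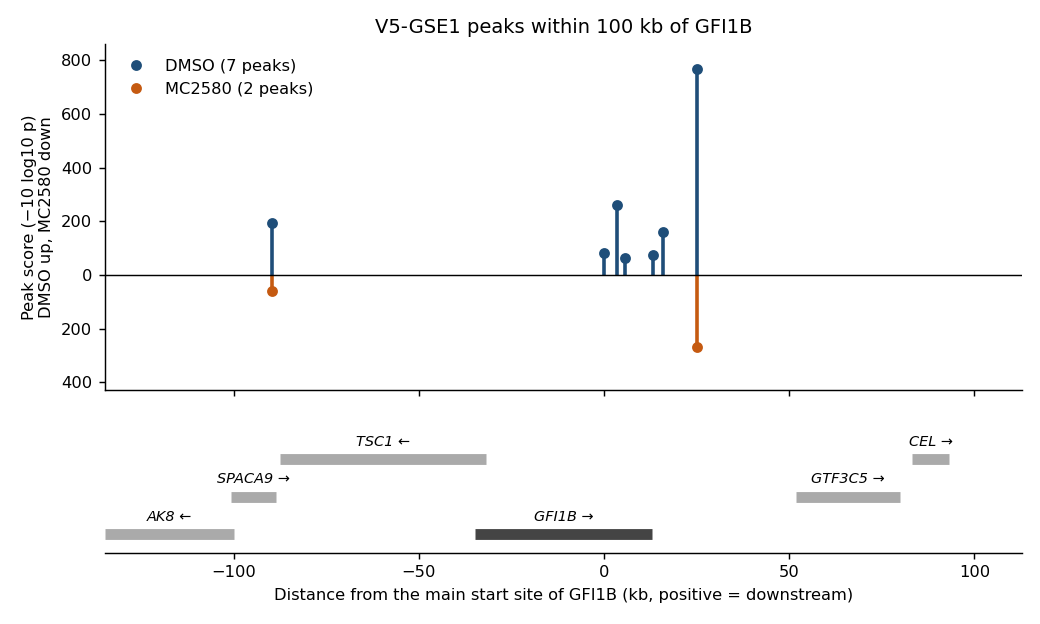
Peaks of V5-GSE1 within 100 kb of GFI1B, drawn as for GFI1, with scores against the distance from the main start site in kb. The downstream site at 25.1 kb is the highest in both lists (768.72 in DMSO, 269.1 in MC2580), and the 5 DMSO peaks from 0.086 to 15.9 kb have no MC2580 peak opposite them.

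Over both loci, 5 of 15 DMSO members overlapped an MC2580 peak by at least 1 bp, the study's rule for a shared region. This share of 33.3% (Wilson 95% interval 15.2 to 58.3, counting error only) stood beside 33.6% of the whole DMSO list and 22.8% of the list outside peak-dense bins of 1 Mb (at least 40 peaks), in which no member lay. Stronger peaks were shared more often in the whole list, so the share was also weighted to the score deciles of the members. The list then gave 43.3%, or 6.5 peaks, and 30.6%, or 4.6 peaks, outside dense bins. The interval treats neighbouring peaks of a single library as independent, so it was not used as a test against these values.

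In the other direction all 5 MC2580 members overlapped a DMSO peak, a share of 100% (56.6 to 100). The whole MC2580 list gave 58%, and 54.6% outside dense bins, and weighted to the members' deciles these were 56.3% and 58.5%. These 5 were the partners of the 5 shared DMSO members, so this share is not a second result. Its interval has the same limit and was not used as a test against the list's shares. No site at either locus was found after MC2580 alone, among 5 peaks.

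The DMSO members that were shared were mostly the stronger ones. Their scores ran from 114.78 to 768.72 with a median of 238.0, against 61.47 to 261.04 and a median of 89.36 for the 10 that were not, so that the ranges overlapped. In the top decile of the DMSO list both members were shared, as was 87.9% of the decile. In the ninth decile 2 of 3 members were shared (62.3% of the decile), the exception being the 3.64 kb peak of GFI1B. In the eighth decile none of 3 was (45.5% of the decile): the 2.63 kb and -97.1 kb peaks of GFI1 and the 15.9 kb peak of GFI1B.

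All 5 shared sites had a lower score in MC2580. The ratio of the MC2580 score to the DMSO score was 0.171 at the GFI1 promoter, 0.404 at 26.9 kb and 0.473 at -58.0 kb, and it was 0.3 at -89.6 kb and 0.35 at 25.1 kb of GFI1B. The members' median was 0.35. Over the whole lists 5449 pairs were one-to-one, with neither peak overlapping a further one, and of these 76.7% had the lower score in MC2580 and the median ratio was 0.638 (quartiles 0.385 and 0.966), whereas outside dense bins 90.6% were lower and the median was 0.421. A pair needs an MC2580 score of at least 50, so the lowest ratio that could be seen was higher at a lower DMSO score. At -58.0 kb the scores were 114.78 and 54.34, so that its ratio lay near this floor. A score grows with depth, and no correction for depth could be made.

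Against pairs of the same DMSO score decile, the sites differed among themselves. The downstream sites of both genes lay near the middle of all such pairs, with 49.0% (GFI1) and 54.4% (GFI1B) of pairs in their deciles having a lower ratio. The GFI1 promoter lay lower, with 17.5% of its decile and 4.09% of all pairs below it, and the decile's median was 0.323. The -58.0 kb site of GFI1 had 14.8% of its decile below it (decile median 0.692), and the -89.6 kb site of GFI1B had 26.5% (decile median 0.407). Outside dense bins, where all the members lay, the shares of pairs below were higher. They were 61.4% and 62.8% for the downstream sites of GFI1 and GFI1B, 21.0% for the GFI1 promoter (decile median 0.286), 24.9% at -58.0 kb (decile median 0.57) and 36.8% at -89.6 kb (decile median 0.348). None of the members lay above the upper quartile of all pairs in its decile.

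**Figure D4:**
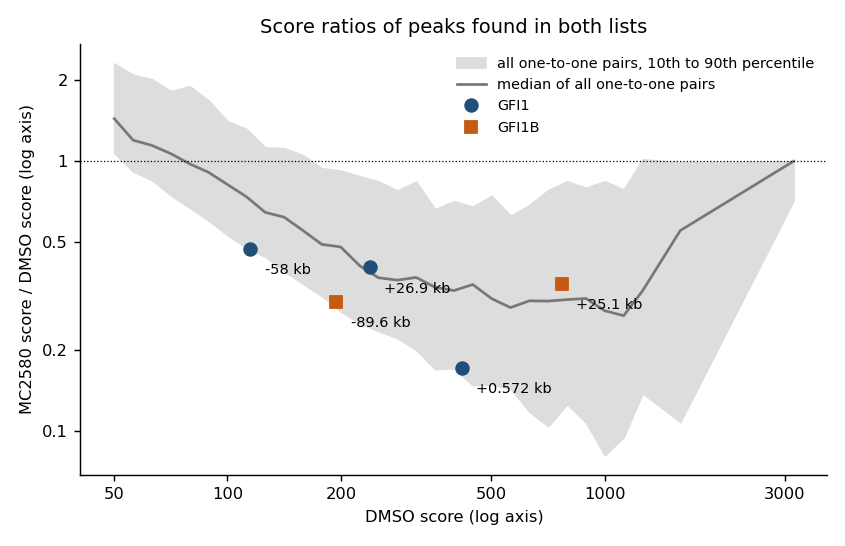
Ratio of the MC2580 score to the DMSO score against the DMSO score, both axes logarithmic, for the 5 sites called in both lists (points, labelled by distance from the main start site). The grey line and band are the median and the 10th to 90th percentiles of the 5449 one-to-one pairs in bins of score. Bins with few pairs are left out, and the dotted line marks equal scores. All 5 points lie below equality, from 0.171 at the GFI1 promoter to 0.473 at -58.0 kb. A pair needs an MC2580 score of at least 50, so low ratios can be seen only at high DMSO scores.

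At each of the 5 shared sites the width ratio was closer to 1 than the score ratio. The MC2580 width divided by the DMSO width was 0.423 at the GFI1 promoter, and 0.776, 0.833, 0.859 and 0.934 at the other shared sites, beside a median of 0.846 over all pairs. Peaks covered 9130 bp around GFI1 in DMSO and 2317 bp in MC2580, and 8428 and 2914 bp around GFI1B.

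The median member scored above the median of the DMSO list. In MC2580 it scored below the median of the whole list and above that of the list outside dense bins. In DMSO their median score was 158.8, against 91.08 for the list, and 9 of 15 (60.0%) reached 100, against 44.3%. In MC2580 the members' median of 71.3 stood below the list's 78.1, and 1 of 5 reached 100, against 33.8%. Outside dense bins, where all the members lay, the list medians were 91.66 in DMSO and 67.22 in MC2580. There 45.5% of DMSO peaks and 26.1% of MC2580 peaks reached 100. These differences from the lists were not tested.

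For a peak within 3 kb of one of its own start sites, GFI1 and GFI1B were both among the 16.1% of 20033 protein-coding genes that had one in DMSO. Only GFI1 was among the 7.87% that had one in MC2580. Of all genes with a DMSO promoter peak 39.6% also had an MC2580 one. Both members had 3 promoter peaks in DMSO, and their highest promoter scores, 417.8 and 261.04, exceeded those of 87.7% and 79.5% of the genes with such a peak. At GFI1B the 261.04 peak entered by a narrow margin, its edge being 2941 bp from the nearest start site.

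The neighbourhoods of both genes held more peaks than those of most genes. In the gene span with 100 kb on each side, GFI1 had 8 DMSO peaks, more than 91.1% of protein-coding genes, and 3 MC2580 peaks, more than 87.5%. GFI1B had 7 and 2, more than 89.4% and 80.3%. The median gene had 1 DMSO peak and 0 MC2580 peaks. Per 100 kb, which allows for gene length, the DMSO densities were 3.74 and 2.83, above 92.8% and 90.1% of genes, and the MC2580 densities were 1.4 and 0.807, above 90.6% and 83.4%. Among the 18662 genes outside dense bins these shares were 97.9% and 95.5% in DMSO, and 96.0% and 88.6% in MC2580.

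**Figure D5:**
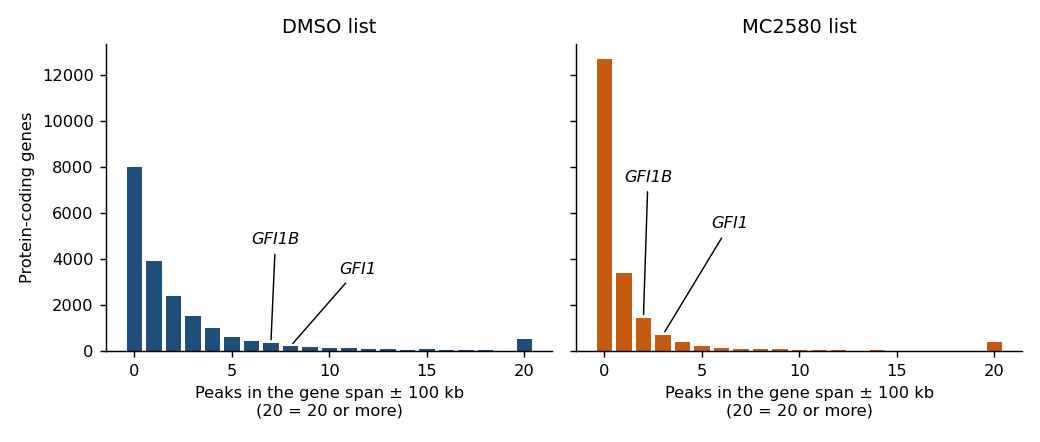
Number of protein-coding genes (vertical axis) by the number of peaks in the gene span with 100 kb on each side (horizontal axis, with 20 standing for 20 or more), for the DMSO list (left) and the MC2580 list (right). GFI1 stands at 8 and 3 peaks and GFI1B at 7 and 2, to the right of the medians of 1 and 0.

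None of 9 other genes for SNAG-domain repressors (SNAI1, SNAI2, SNAI3, INSM1, INSM2, OVOL1, OVOL2, SCRT1 and SCRT2) had a promoter peak in either list. Most genes had none, since 16.1% of all protein-coding genes had one in DMSO and 7.87% in MC2580. Within 100 kb of the gene span, 6 of the 9 had DMSO peaks and 6 had MC2580 peaks, with medians of 4 and 1 per gene. Over all protein-coding genes, 60% had a DMSO peak and 36.6% an MC2580 peak in this range. SNAI1, which represses E-cadherin, had 8 and 3, and SNAI3 had 13 and 5. OVOL1, with 7 and 3, lay in a peak-dense bin of 50 peaks.

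Among 11 genes for LSD1 and its partners, RCOR1, which encodes the scaffold CoREST, had a promoter peak in both lists, with scores of 136.25 and 107.26. The other 10 had none, beside 16.1% of all protein-coding genes with a promoter peak in DMSO and 7.87% in MC2580. KDM1A, the gene for LSD1 itself, had 3 DMSO peaks and no MC2580 peak in its neighbourhood, and RCOR2, for a CoREST paralogue, had 5 and 1. In all, 6 of the 11 genes had a DMSO peak in the neighbourhood and 2 had an MC2580 peak, beside the same 60% and 36.6% of all protein-coding genes.

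Genes were also ranked by likeness to each member, with the same numbers of promoter peaks in both lists and the nearest highest promoter score in DMSO. For GFI1, 76 genes had 3 DMSO and 1 MC2580 promoter peaks, and the nearest were IGF2BP3 (402.37 in DMSO, 77.61 in MC2580), AHNAK (455.19 and 133.96) and GNG4 (373.51 and 63.27). For GFI1B, 65 genes had 3 and 0, and the nearest were S100P (264.74), RRP12 (251.79) and SSH2 (273.93). The likeness rests on 1 library per condition. For GFI1B it also rests on the 261.04 peak, whose edge lay 2941 bp from a start site. With promoters limited to 1 kb GFI1B had 1 DMSO promoter peak, so its list of like genes depends on the 3 kb rule.

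In the 300-base windows of the 15 DMSO members the GFI1 word occurred in 4, or 26.7%. Of all DMSO windows 20.7% held it, of those outside dense bins 21.3%, and of 35116 RefSeq promoter windows of the same length 13.2%. The 4 windows were those at -29.3 and -58.0 kb of GFI1 and at 0.086 and 3.64 kb of GFI1B. In GFI1B both were therefore in the promoter and first intron, where peaks were in the DMSO list only. At GFI1 the -29.3 kb peak was also in the DMSO list only, and the -58.0 kb site was shared.

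The CEBP word was found in 6 of the 15 member windows, of which 5 were at GFI1B and 1 at GFI1, beside 19.1% of all DMSO windows, 23.7% of those outside dense bins and 10.5% of promoters. Words of PU.1 and RUNX, regulators of myeloid cells, each occurred in 6 of 15 windows, beside 30.2% and 30.7% of all DMSO windows, 35.4% and 38.2% of those outside dense bins, and 27.9% and 13.1% of promoters. The GATA word was in 2 (13.3%, against 15.5%, 16.4% and 10.3%), and the AP-1 word was in 1 (6.67%, against 13.1%, 16.8% and 7.71%). The counts also depend on the midpoint used. Around the MC2580 midpoints, the window at 25.1 kb of GFI1B held no CEBP word and that at -58.0 kb of GFI1 held 1 GFI1 word. At -89.6 kb of GFI1B the counts were unchanged. All such matches are letters in a window and not sites of binding, and no factor other than V5-GSE1 was measured.

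Base composition varied widely among the members. The GC content of the whole DMSO peaks ran from 28.8 to 63.8% with a median of 52.0%, against 46.9% for the list. The observed to expected ratio of CpG ran from 0.112 to 0.807 with a median of 0.286, against 0.228.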

How the data were processed

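V5 ChIP-seq of NB4 cells gave 2 peak lists, one for DMSO and one for MC2580, each assigned to its condition by its label. According to the methods, the authors mapped the reads to hg38 with Bowtie (version 4.8.2 in the submitters' processing notes) and kept unique matches with at most 2 mismatches. MACS, with p-values up to 1e-05 accepted, then compared each V5-GSE1 ChIP with input and EV ChIP. How both backgrounds were combined was not stated. The deposited score is the caller's value, minus 10 times log10 of p, and depends on sequencing depth, which is unknown, so that no precision could be attached to it.

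From these lists the positions (hg38, counted from 1), scores, distances and overlaps were computed in Python 3.11.15 with numpy 2.4.6, pandas 2.3.3 and matplotlib 3.10.9. Genes came from GENCODE version 44, and promoter letters from RefSeq (GRCh38.p14), which matched both members with 5 entries. A peak was a promoter peak within 3 kb of a start site. Otherwise it was classed by exon, intron or intergenic position. Interval functions were tested on simulated data. With 1 library per condition no test was made, and backgrounds are shares of the whole lists, of score deciles or of all protein-coding genes. Members, gene lists and words were chosen with earlier results of these data known. Named besides the members are genes that member peaks lie in or nearest to, the listed SNAG and LSD1 complex genes, and the 3 genes most like each member. Alternatives were flanks of 50 and 250 kb, a score of at least 100, the top-scoring DMSO peaks in the number of the MC2580 list, merging within 1 kb, other overlap rules and promoter definitions, and removal of dense bins, the last chosen after seeing the data.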

Additional observations from a re-analysis of the deposited data

How the results depend on the processing

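Of 44 recomputed counts, 33 stayed within 1.5 times the reported count and 11 did not. Some of the 33 could not have moved. No member lay in a dense bin, and the shared DMSO members all scored above 100. The count of 0 MC2580 promoter peaks at GFI1B could not fall under narrower rules. With a score of at least 100, the peaks around GFI1 numbered 5 in DMSO and 0 in MC2580, those around GFI1B 4 and 1, 1 MC2580 member overlapped the other list, GFI1 had 0 MC2580 promoter peaks and GFI1B 1 DMSO promoter peak. With a flank of 50 kb, GFI1B had 1 MC2580 peak, and 3 DMSO and 3 MC2580 members overlapped the other list. With promoters limited to 1 kb, GFI1B had 1 DMSO promoter peak. In each of these settings both genes had fewer peaks in MC2580 than in DMSO, as did the lists themselves. The MC2580 list held 13233 peaks against 21401 in DMSO, and 4439 against 10446 outside dense bins, where all the members lay. There 26.1% of MC2580 peaks and 45.5% of DMSO peaks reached a score of 100. With only the top-scoring DMSO peaks, as many as the MC2580 list holds, GFI1 had 6 and GFI1B 5. The number was matched over the whole lists and not outside dense bins, so it did not equalise the lists where the members lay. Single libraries, a shared EV control and unknown depth limit every difference, and the share of lower scores that depth alone would give was not tested. The paper reported that MC2580 also lowered the V5-tagged GSE1 protein, and what this contributes to the lower scores was not tested. No paired analysis was possible because each group held 1 library and no test was made.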

Other observations

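Widening the flanks to 250 kb added 1 DMSO peak at each locus and no MC2580 peak. At GFI1 it lay 130 kb downstream in an intron of RPAP2, at chr1:92356527-92357368, with a score of 53.77. At GFI1B it lay 143 kb downstream, 158 bp from a start site of RALGDS, which encodes an exchange factor for Ral proteins, at chr9:133121398-133122245, with a score of 192.71. Neither overlapped an MC2580 peak.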
